A study of Caenorhabditis elegans with 4 samples.

Results

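The genes described here build, maintain and use the sensory cilium of Caenorhabditis elegans. They form a list of 50 genes chosen by name: subunits and motors of intraflagellar transport, the BBSome, the transition zone, sensory signalling proteins of the cilium, and several regulators. Of the 50, 44 had a transcript in the deposited table, among 41614 genes in all, and 43 of these averaged at least 1 FPKM over the libraries and were tested among 15202 genes. FPKM is the number of sequenced fragments scaled to the length of the transcript and to the number of mapped fragments. The 43 lay above 1 FPKM in every library, so none entered through one genotype alone. The genes dyf-2, osm-3, kap-1, mks-1 and dyf-7 had a RefSeq entry but no matching transcript, ift-140 had no entry under that name, and the 6 were not analysed here.

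The study set dve-1(uf171) mutants against wild-type animals. Bulk RNA was sequenced from whole larvae of the first larval stage (L1), with 2 libraries of mutants and 2 of wild type. Animals of both genotypes were kept at 25 degrees Celsius on E. coli OP50, and around 1200 synchronized larvae went into a collection. DVE-1, a homeodomain factor, is best known from the response to mitochondrial stress. The labels give the allele but not what it changes. They also leave unsaid whether replicates were grown as separate cultures, so the p-values cover only how far these libraries differ, which may be technical.

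In C. elegans only sensory neurons carry cilia, at the tips of their dendrites. Cilia grow and are kept up by intraflagellar transport, in which kinesin motors carry IFT particles towards the tip and dynein brings them back. The IFT-B complex serves the outward trip, IFT-A the return, and the BBSome links membrane cargo to both. The transition zone at the base of the cilium acts as its gate, and channels, receptors and G proteins in the ciliary membrane turn smells, tastes and touch into signals. Mutants in these genes are known for failing to take up dye, to avoid strong osmotic stimuli or to follow attractants, which gave the che, osm and dyf genes their names.

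None of the 43 cilium genes passed the test between genotypes. By limma with Benjamini-Hochberg adjustment over all tested genes, 0 of 43 reached the threshold of 0.05, where 1.66% of all tested genes did (0.303% higher and 1.36% lower in mutants), and the smallest adjusted p was 0.47 (odr-10). At an unadjusted p under 0.05 the count was also 0, where 11.9% of all tested genes passed. The mutant values tended to lie slightly above the wild-type values: the median log2 fold change over the 43 was 0.18, against 0.09 over all tested genes. Fold changes here are mutant over wild type on the log2(FPKM + 1) scale, which understates the change of genes as low as these. In plain FPKM, the ratio of the mutant to the wild-type mean ran between 0.649 and 1.496 over the 43 genes with a median of 1.16. On the log2(FPKM + 1) scale the 95% interval of the difference held 0 for each of the 43, and for 33 of them it lay within a 2-fold change both ways on that scale, which is a wider limit in plain FPKM.

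For 16 of the 43 genes the 2 mutant values exceeded the 2 wild-type values (37.2%), where 28.1% of all tested genes did so. They lay below them for 3 genes (6.98%), ift-20, klp-11 and xbx-1, where 15.9% of all tested genes did so, and the values of the other 24 overlapped. The fold change was above 0 for 37 of 43 (86.0%), against 60.7% of all tested genes. These counts rested partly on single libraries. Without the first mutant library 27 of the 43 lay above 0 (against 56.1% of all tested genes), and without the first wild-type library 29 did (against 57.7%). The medians were then 0.096 and 0.11, against 0.057 and 0.084 over all tested genes. Without the second mutant or the second wild-type library 38 and 37 lay above 0 (against 58.8% and 59.2%). Under median-ratio scaling 31 of 43 lay above 0, against 50.6% of all tested genes. In whole animals, a different number of ciliated cells and a different amount of RNA per cell, whether more or less, cannot be told apart.

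**Figure D1:**
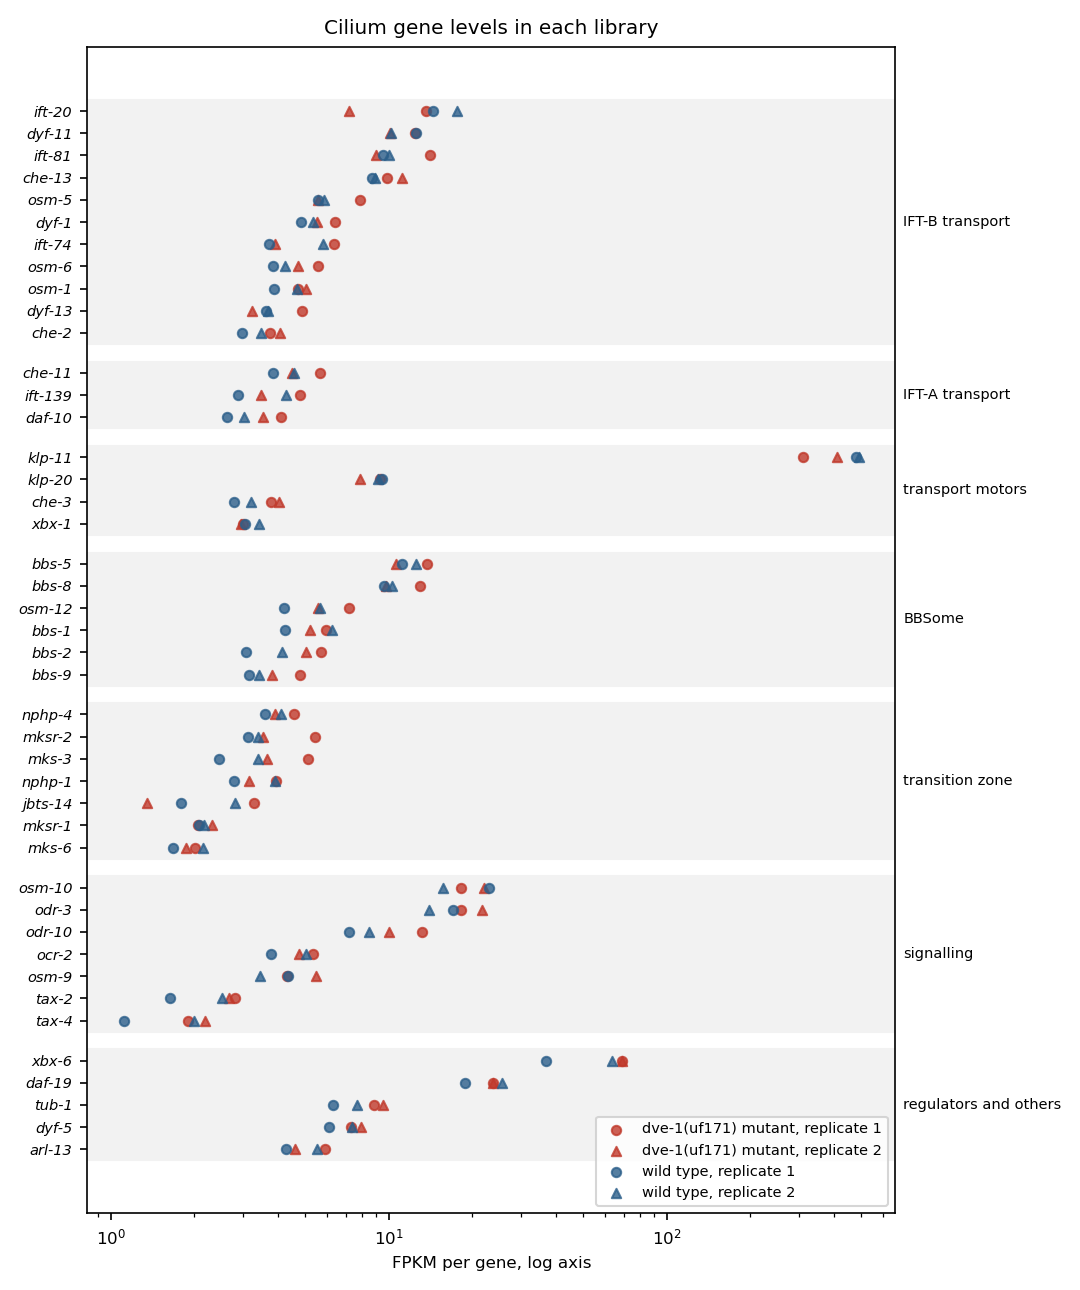
FPKM of each of the 43 tested cilium genes (rows, grouped by role) on a log axis in the 2 mutant libraries (red) and the 2 wild-type libraries (blue); circles are replicate 1 and triangles replicate 2. Of the 43 genes, 33 lie between 2 and 15 FPKM in every library.

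**Figure D2:**
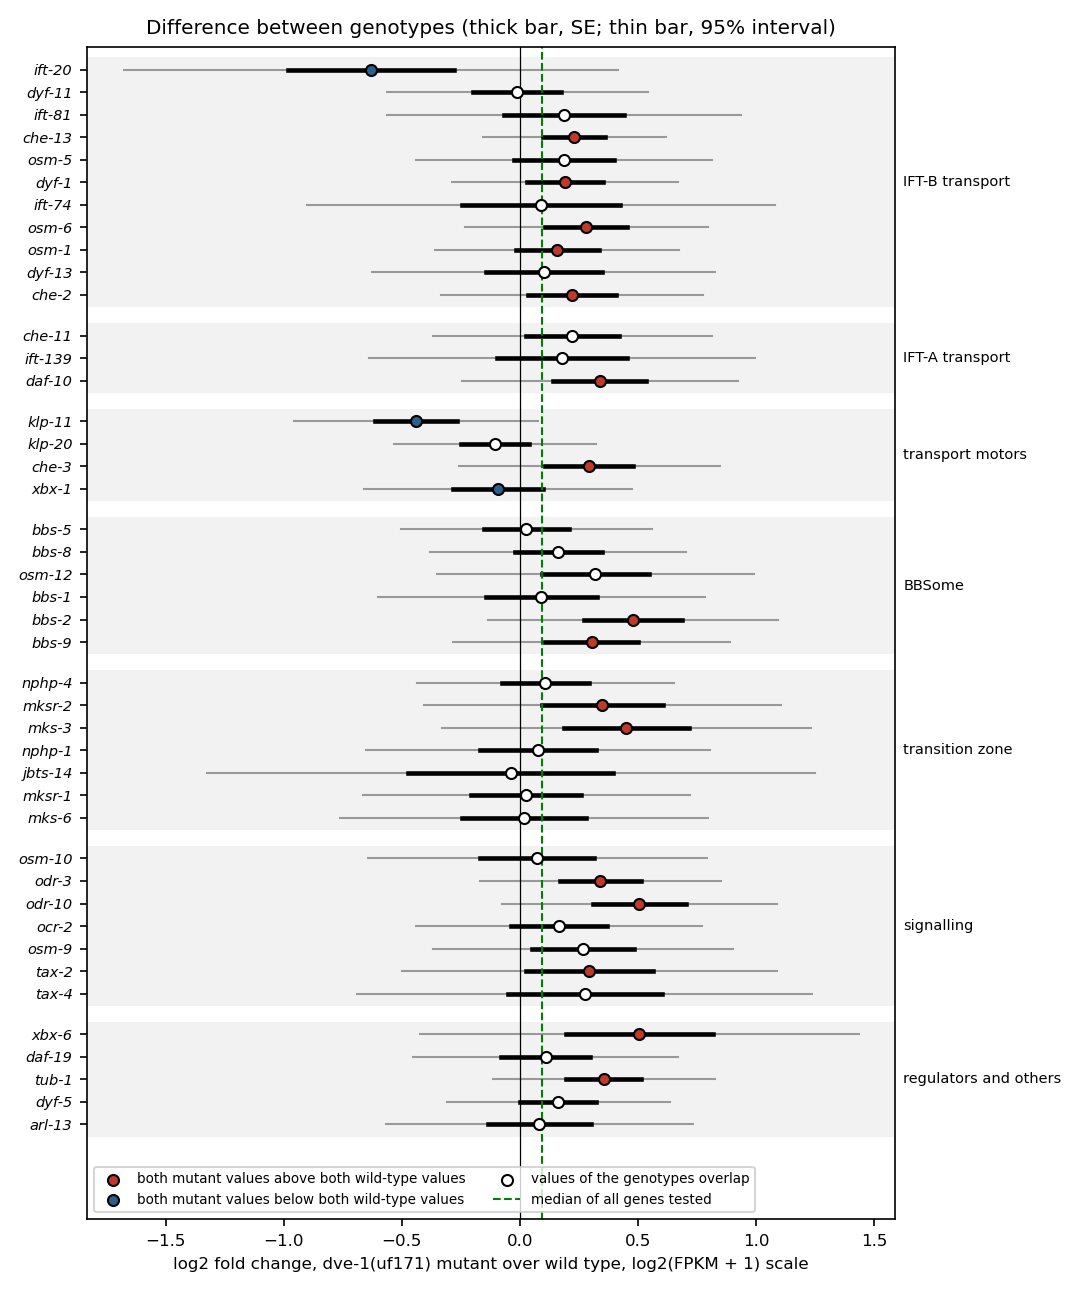
Log2 fold change, dve-1(uf171) mutant over wild type, of each gene with its SE (thick bar) and 95% interval (thin bar), coloured by whether the 2 values of each genotype overlap. All 43 intervals cross 0, and the dashed line marks the median of all genes tested, 0.09.

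Transcripts of the cilium genes were scarce and close to each other in level. The median over the 43 genes of the mean FPKM was 4.72, against 13.3 over all tested genes, and 33 of the 43 stayed between 2 and 15 FPKM in every library. Leaving out klp-11, whose value is uncertain, the log2 levels of the other 42 genes correlated between libraries at 0.945 to 0.976. These are descriptions across genes of the same libraries. By the mean over the 4 libraries, xbx-6 and daf-19 stood at the top of these 42 and tax-4, mks-6, mksr-1 and jbts-14 at the bottom. Neighbours in this order changed places between libraries, as osm-10 stood above daf-19 in the first wild-type library.

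The IFT-B genes encode subunits of the particle that kinesin carries outward. Of 12 listed, 11 were tested, and their median log2 fold change was 0.19. It was -0.029 without the first mutant library and 0.28 without the second. In 5 of the 11 the mutant values exceeded both wild-type values (45.5%, against 28.1% of all tested genes). The largest fold change of these was that of osm-6 (chromosome V, 11924621 to 11927446, WBcel235), with 5.56 and 4.71 FPKM in mutants, against 3.84 and 4.25 FPKM in wild type (log2 fold change 0.28, SE 0.17, limma adjusted p = 0.615). For che-13 the values were 9.86 and 11.2 FPKM in mutants, against 8.73 and 8.91 FPKM in wild type. The WD-repeat protein gene che-2 stood at 3.74 and 4.07 FPKM in mutants, against 2.96 and 3.47 FPKM in wild type. In these 3 genes the genotypes did not overlap, and the gap between them was narrower than the difference between the mutant libraries. Smaller gaps in the same direction were seen in dyf-1, whose product lets the kinesin OSM-3 work on IFT particles, and in osm-1.

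The dyf-1 values were 6.41 and 5.51 FPKM in mutants, against 4.83 and 5.35 FPKM in wild type. The osm-1 values were 4.71 and 5.04 FPKM in mutants, against 3.88 and 4.68 FPKM in wild type. In both genes the second wild-type library came close to the lower mutant value. In the opposite direction stood ift-20, a small IFT-B subunit gene and the most abundant of the group by mean, with 13.6 and 7.18 FPKM in mutants, against 14.4 and 17.6 FPKM in wild type (log2 fold change -0.63, SE 0.35, limma adjusted p = 0.584). Its mutant values differed from each other by more than the first mutant value differed from wild type. Of its exon bases 14.7% are shared with spe-5 on the other strand, and no source used here says whether counting used strand.

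In the remaining IFT-B genes the genotypes overlapped. The gene dyf-11 had near-equal means, with 12.5 and 10.1 FPKM in mutants, against 12.5 and 10.2 FPKM in wild type. For ift-81, a subunit that binds tubulin together with IFT-74, the values were 14.05 and 8.997 FPKM in mutants, against 9.56 and 10.01 FPKM in wild type. The first mutant library alone was high there, as it was for osm-5, the counterpart of mammalian polaris, at 7.85 and 5.57 FPKM in mutants, against 5.58 and 5.83 FPKM in wild type. The gene ift-74 stood at 6.36 and 3.91 FPKM in mutants, against 3.71 and 5.79 FPKM in wild type, so that 1 library of each genotype was high. The dyf-13 values were 4.88 and 3.22 FPKM in mutants, against 3.61 and 3.68 FPKM in wild type. The remaining gene, dyf-3, was listed at 0 in both mutant libraries, against 0 and 1.06 FPKM in wild type. Only 1 of the 3 RefSeq transcripts of dyf-3 was in the table, so no level of the gene is drawn from these values and it was not tested.

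Of the IFT-A genes, which serve the return trip, 3 of 5 were tested, and their median log2 fold change was 0.22. It was 0.083 and 0.36 without the first and the second mutant library, and 0.12 and 0.40 without the first and the second wild-type library. The gene daf-10 did not overlap between genotypes, with 4.10 and 3.54 FPKM in mutants, against 2.63 and 3.01 FPKM in wild type (log2 fold change 0.34, SE 0.20, limma adjusted p = 0.6004). In che-11 the values were 5.66 and 4.49 FPKM in mutants, against 3.83 and 4.57 FPKM in wild type. For ift-139 they were 4.78 and 3.48 FPKM in mutants, against 2.86 and 4.26 FPKM in wild type. In all 3 genes the highest value was that of the first mutant library and the lowest that of the first wild-type library. The fold change of ift-139 turned to -0.007 without the first mutant library and to -0.046 without the first wild-type library.

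The motor genes differed in direction among themselves, and the median over 4 tested genes was -0.10. It was -0.158 and -0.041 without the first and the second mutant library, and -0.185 under median-ratio scaling. When only the 2 motor genes averaging 5 FPKM or more were kept, klp-20 and the uncertain klp-11, it was -0.274. Kinesin-II carries IFT particles outward, and cytoplasmic dynein carries them back. The dynein heavy chain gene che-3 stood at 3.76 and 4.02 FPKM in mutants, against 2.78 and 3.21 FPKM in wild type (log2 fold change 0.29, SE 0.19, limma adjusted p = 0.623). Its partner xbx-1, the dynein light intermediate chain gene, had 2.98 and 2.94 FPKM in mutants, against 3.03 and 3.42 FPKM in wild type, a gap narrower than the spread between the wild-type libraries. The kinesin-II motor subunit gene klp-20 stood at 9.33 and 7.87 FPKM in mutants, against 9.45 and 9.17 FPKM in wild type, with overlap.

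The other kinesin-II motor gene, klp-11 (chromosome IV, 8756735 to 8762066, WBcel235), was listed far above every other member, at 310 and 409 FPKM in mutants, against 478 and 490 FPKM in wild type (log2 fold change -0.44, SE 0.17, adjusted p = 0.474 by limma). The genotypes did not overlap. In the Ensembl annotation 97.1% of its exon bases also belong to another gene on the same strand, F20C5.11, and its annotated transcripts run from 84 to 2419 nt. Its FPKM came mostly from 1 transcript, at 266 and 368 FPKM in mutants, against 441 and 438 FPKM in wild type. A second one stood at 43.5 and 41.6 FPKM in mutants, against 36.5 and 52.3 FPKM in wild type, and the third was listed at 0 throughout. Of its 4 annotated transcripts, 3 are in the table. These values are therefore uncertain as a measure of the kinesin-II motor.

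All 6 BBSome genes were tested, and the fold change of each was above 0, with a median of 0.23. The median was 0.083 and 0.39 without the first and the second mutant library, and 0.13 and 0.34 without the first and the second wild-type library. Without the first mutant library bbs-5 and bbs-8 turned to -0.144 and -0.023, and without the first wild-type library bbs-5 turned to -0.051. The gene bbs-2 had one of the largest mutant to wild-type ratios of the list, with 5.71 and 5.03 FPKM in mutants, against 3.07 and 4.12 FPKM in wild type (log2 fold change 0.48, SE 0.21, 95% interval -0.14 to 1.09, limma adjusted p = 0.503). For bbs-9 the values were 4.78 and 3.81 FPKM in mutants, against 3.13 and 3.42 FPKM in wild type. In both genes all mutant values lay above all wild-type values. The gene osm-12, the counterpart of a human Bardet-Biedl syndrome gene, stood at 7.2001 and 5.58 FPKM in mutants, against 4.22 and 5.66 FPKM in wild type. Its second mutant and second wild-type libraries were nearly equal.

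The remaining 3 BBSome genes overlapped between genotypes. For bbs-5 the values were 13.7 and 10.6 FPKM in mutants, against 11.2 and 12.5 FPKM in wild type. For bbs-8 they were 12.9 and 9.79 FPKM in mutants, against 9.63 and 10.3 FPKM in wild type. The gene bbs-1 stood at 5.96 and 5.19 FPKM in mutants, against 4.25 and 6.24 FPKM in wild type. In each of the 6 BBSome genes the first mutant library was above the second, and the first wild-type library was below the second.

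Of the transition zone genes 7 of 8 were tested, with a median log2 fold change of 0.07, against 0.09 over all tested genes. This order rested on single libraries: the median was 0.20 without the second mutant library and 0.19 without the second wild-type library, against 0.10 and 0.093 over all tested genes. It was 0.012 without the first mutant library, 0.009 without the first wild-type library and -0.005 under median-ratio scaling. The gene mks-3, whose human counterpart meckelin is mutated in Meckel syndrome, had the largest ratio of means in the whole list, with 5.112 and 3.64 FPKM in mutants, against 2.46 and 3.39 FPKM in wild type (ratio of means 1.496, log2 fold change 0.45, SE 0.26, limma adjusted p = 0.6002). Of the exon bases of mks-3, 5.28% are shared with F35D2.6 on the other strand. For mksr-2 the values were 5.45 and 3.54 FPKM in mutants, against 3.13 and 3.38 FPKM in wild type. These 2 did not overlap between genotypes, and in both the first mutant library was the highest.

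The rest of the transition zone overlapped. The nephrocystin gene nphp-4 had 4.57 and 3.89 FPKM in mutants, against 3.60 and 4.10 FPKM in wild type, and its partner nphp-1 had 3.93 and 3.14 FPKM in mutants, against 2.77 and 3.89 FPKM in wild type. The ratio of means was between 1.007 and 1.028 for mks-6, mksr-1 and jbts-14. Of these, jbts-14 was the most variable, with 3.28 and 1.35 FPKM in mutants, against 1.79 and 2.81 FPKM in wild type, and its interval of -1.33 to 1.248 on the log2(FPKM + 1) scale allows a change of over 2-fold either way. The values of mks-6 were 2.02 and 1.86 FPKM in mutants, against 1.68 and 2.15 FPKM in wild type. Those of mksr-1 were 2.06 and 2.31 FPKM in mutants, against 2.09 and 2.16 FPKM in wild type.

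All 7 signalling genes were tested and had fold changes above 0, with a median of 0.27. The median ranged from 0.22 to 0.34 when a library was left out. It was 0.21 under median-ratio scaling, and 0.357 and 0.359 when 0.1 and 0.01 were added to FPKM in place of 1. The diacetyl receptor gene odr-10 (chromosome X, 6864315 to 6865939, WBcel235), which acts in the AWA olfactory neurons, had 13.2 and 10.03 FPKM in mutants, against 7.203 and 8.47 FPKM in wild type. Its means were 11.6 ± 2.24 FPKM in mutants and 7.84 ± 0.895 FPKM in wild type (SD, n = 2 each), a log2 fold change of 0.51 (SE 0.20, 95% interval -0.08 to 1.09). The genotypes did not overlap, but the difference did not pass (limma adjusted p = 0.470, and 0.365 to 0.707 with a library left out). The G protein alpha subunit gene odr-3 had 18.2 and 21.6 FPKM in mutants, against 17.1 and 13.98 FPKM in wild type (log2 fold change 0.34, SE 0.17, limma adjusted p = 0.552), again without overlap.

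The genes tax-2 and tax-4 encode the subunits of a cyclic nucleotide-gated channel used in smell, taste and temperature sensing. For tax-2 the values were 2.80 and 2.66 FPKM in mutants, against 1.64 and 2.51 FPKM in wild type. For tax-4 they were 1.90 and 2.19 FPKM in mutants, against 1.12 and 1.99 FPKM in wild type. In both, the first wild-type library was low and the other 3 lay close together, and tax-2 alone did not overlap. The TRPV channel genes osm-9 and ocr-2 act together in nociceptive and olfactory neurons. The osm-9 values were 4.30 and 5.46 FPKM in mutants, against 4.33 and 3.44 FPKM in wild type. The ocr-2 values were 5.32 and 4.74 FPKM in mutants, against 3.77 and 5.05 FPKM in wild type. Both overlapped between genotypes. The most abundant by wild-type mean, osm-10, which is needed for osmotic avoidance, stood at 18.2 and 21.9 FPKM in mutants, against 22.9 and 15.7 FPKM in wild type, and its direction turned under median-ratio scaling (log2 fold change -0.026).

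The regulator daf-19 (chromosome II, 10157520 to 10169346, WBcel235) encodes the RFX transcription factor that switches on many ciliary genes through the X-box in their promoters. It stood at 23.7 and 23.7 FPKM in mutants, against 18.8 and 25.5 FPKM in wild type (log2 fold change 0.11, SE 0.19, adjusted p = 0.831 by limma). The mutant values lay between the wild-type values. When the largest transcript alone was used, the fold change was -0.067. The gene xbx-6, named for its X-box, was the most abundant member after klp-11, with 69.2 and 69.0 FPKM in mutants, against 36.6 and 63.8 FPKM in wild type (log2 fold change 0.51, SE 0.31, adjusted p = 0.616 by limma). The first wild-type library stood far below the other 3. The Tubby homologue tub-1, which helps traffic ciliary membrane proteins, had 8.87 and 9.52 FPKM in mutants, against 6.29 and 7.72 FPKM in wild type (log2 fold change 0.35, SE 0.16, limma adjusted p = 0.513). Its genotypes did not overlap.

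The kinase gene dyf-5, which limits the length of cilia, and the ciliary small GTPase gene arl-13 overlapped between genotypes. For dyf-5 the values were 7.29 and 7.93 FPKM in mutants, against 6.08 and 7.36 FPKM in wild type. For arl-13 they were 5.90 and 4.598 FPKM in mutants, against 4.26 and 5.54 FPKM in wild type. The median over the 5 tested regulators and other genes was 0.16. It was 0.042 without the first wild-type library and 0.32 without the second, and 0.215 and 0.233 without the first and the second mutant library. For comparison, the dve-1 transcript itself (chromosome X, 427035 to 433812, WBcel235) stood at 23.4 and 25.5 FPKM in mutants, against 15.1 and 19.5 FPKM in wild type (limma adjusted p = 0.439). An allele need not alter the RNA level of its gene, so these values do not check the labels.

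Replicates of 1 genotype differed from each other in a way that most cilium genes shared. In wild type, replicate 1 was below replicate 2 for 38 of the 43 genes (88.4%), where 50.6% of all tested genes were. In mutants, replicate 1 was above replicate 2 for 31 of the 43 (72.1%), where 52.4% of all tested genes were. The median difference on the log2(FPKM + 1) scale was 0.19 between the mutant libraries and -0.17 between the wild-type libraries, replicate 1 minus 2 in each. These are of the size of the median difference between genotypes, 0.18. The signalling genes departed from this, with 3 of 7 higher in the first mutant library and 4 of 7 lower in the first wild-type library. Replicates have no order, and the pattern says only that the genes moved together between libraries of the same genotype.

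**Figure D3:**
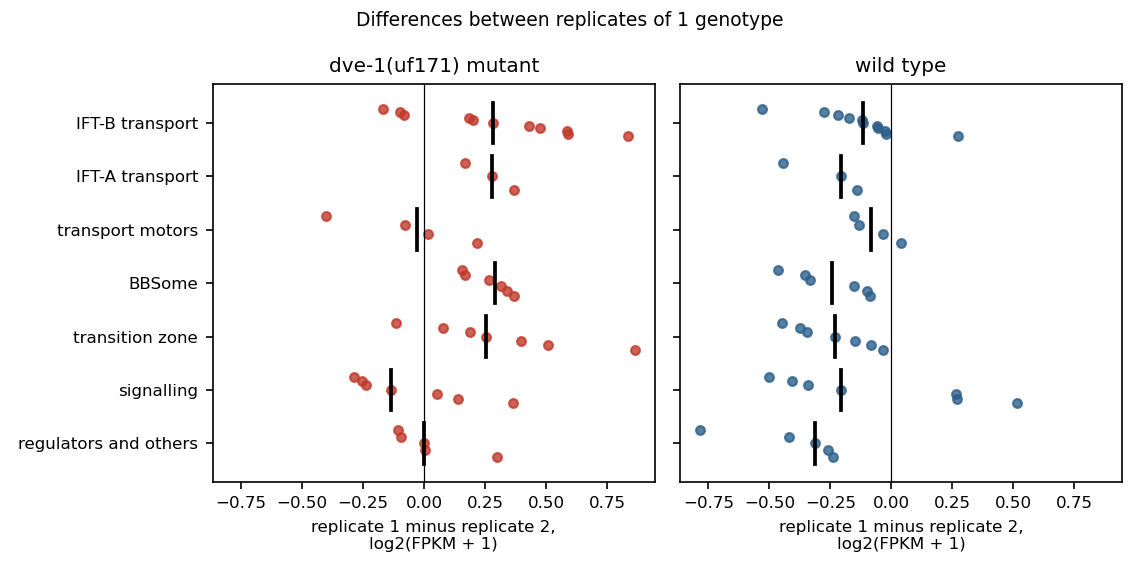
Difference between replicates, replicate 1 minus replicate 2, in log2(FPKM + 1), for mutants (left) and wild type (right); each point is a gene and black lines are medians of each group. In wild type 38 of 43 points lie left of 0, and in mutants 31 of 43 lie right of it.

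Lists of marker genes showed what else moved with these libraries. Wild-type replicate 1 was below replicate 2 for 10 of 11 pan-neuronal genes, 7 of 7 glial genes and 5 of 6 body wall muscle genes as well, but for 2 of 6 intestinal and 3 of 7 epidermal genes. Mutant replicate 1 was above replicate 2 for 7 of 11 pan-neuronal, 5 of 7 glial and 4 of 6 muscle genes, and for 1 of 6 intestinal and 2 of 7 epidermal genes. None of the 11 pan-neuronal genes passed by limma, and 1 did at an unadjusted p under 0.05, where 11.9% of all tested genes did. Their median log2 fold change was 0.20, and their summed level was 1005 to 1074 FPKM in mutants, against 906 to 1035 FPKM in wild type. The glial list, of cells that wrap the ciliated endings, had a median of 0.08 and the muscle list one of 0.11, with 0 called in each. Intestinal and epidermal markers had medians of -0.27 and -0.26, with 1 gene (mtl-2, lower in mutants) and 0 genes past the threshold. Of 7 epidermal genes, 1 was higher in mutants without overlap (14.3%, against 28.1% of all tested genes) and 2 were lower (28.6%, against 15.9%). The largest fold change by size was that of elt-1 (log2 fold change -1.52, limma adjusted p = 0.503). It stood at 4.73 and 17.2 FPKM in mutants, against 24.9 and 32.0 FPKM in wild type. The cuticle collagen gene dpy-7 overlapped, at 2.37 and 10.8 FPKM in mutants, against 23.1 and 0.232 FPKM in wild type. For dpy-7 the replicates of 1 genotype thus differed more than the genotype means did. Genes of all 5 tissues were detected in every library. The part of tissue make-up or larval age in the values of the cilium genes was not tested.

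**Figure D4:**
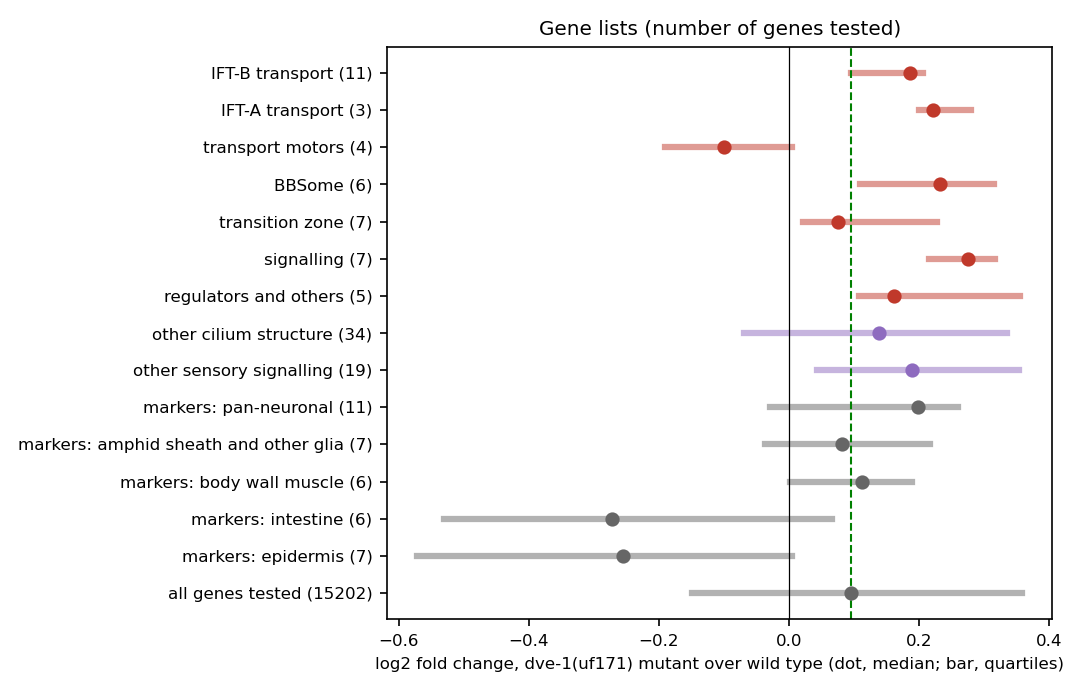
Median log2 fold change (dot), dve-1(uf171) mutant over wild type, and quartiles (bar) of each group of cilium genes (red), of other cilium and sensory genes (purple) and of marker lists and all tested genes (grey), with the number of genes tested in brackets. Transport motors lie below 0, and the other 6 groups of cilium genes lie between 0.07 and 0.27.

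Other genes of the cilium, outside the 50, did not pass the test either. Of 36 further structural genes 34 were tested, and 0 passed by limma in either direction, with a median log2 fold change of 0.14. At an unadjusted p under 0.05, 1 of 34 passed, against 11.9% of all tested genes. Without overlap, 8 of 34 were higher in mutants (23.5%, against 28.1% of all tested genes) and 3 were lower (8.82%, against 15.9%). The X-box gene xbx-5 had the smallest p of these, with 48.9 and 43.4 FPKM in mutants, against 31.8 and 35.1 FPKM in wild type (log2 fold change 0.45, SE 0.13, limma adjusted p = 0.360). Another X-box gene, xbx-3, stood at 27.1 and 27.0 FPKM in mutants, against 25.3 and 16.2 FPKM in wild type. In the other direction lay the rootletin gene che-10, at 4.37 and 4.31 FPKM in mutants, against 4.59 and 8.004 FPKM in wild type, and dyf-17, at 2.35 and 2.10 FPKM in mutants, against 2.49 and 3.41 FPKM in wild type. The direction of che-10 turned when its largest transcript alone was used (0.831).

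Further genes of sensory signalling numbered 26, of which 19 were tested, 0 passed in either direction (0 at an unadjusted p under 0.05) and the median was 0.19. Without overlap, 10 of 19 were higher in mutants (52.6%, against 28.1% of all tested genes) and 2 were lower (10.5%, against 15.9%). The receptor guanylyl cyclase gene gcy-18 of the AFD thermosensory neurons had 5.90 and 9.58 FPKM in mutants, against 5.32 and 3.50 FPKM in wild type (log2 fold change 0.68, SE 0.33, adjusted p = 0.537 by limma). The cyclase gene gcy-5, which acts in taste neurons, had 4.35 and 3.07 FPKM in mutants, against 2.43 and 2.14 FPKM in wild type. Other AFD genes differed in direction. The cyclase gene gcy-8 stood at 3.42 and 1.94 FPKM in mutants, against 1.46 and 2.16 FPKM in wild type, with overlap (log2 fold change 0.37). The cyclase gene gcy-23 stood at 3.25 and 3.71 FPKM in mutants, against 4.24 and 4.41 FPKM in wild type, and the AFD homeobox gene ttx-1 at 28.1 and 29.9 FPKM in mutants, against 31.4 and 33.7 FPKM in wild type. The differences between these genes were not tested.

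Several members have more than one RefSeq transcript, and FPKM were also tested transcript by transcript. The 44 members had 60 transcripts in the table, of which 52 were tested, and 0 passed by limma (0 at an unadjusted p under 0.05, smallest adjusted p 0.498), where 1.87% of all tested transcripts did. For daf-19, numbering the transcripts in order of their identifiers, the first stood at 11.2 and 10.995 FPKM in mutants, against 10.5 and 13.1 FPKM in wild type. Transcript 4 was listed at 6.01 and 12.7 FPKM in mutants, against 5.10 and 0 FPKM in wild type, and transcript 5 at 6.45 and 0 FPKM in mutants, against 3.23 and 12.4 FPKM in wild type. Transcripts 4 and 5 thus traded places between libraries while the sum varied less. A like exchange was seen in dyf-1, whose second transcript was listed at 0 and 1.74 FPKM in mutants, against 2.45 and 0 FPKM in wild type. In ift-74 the first transcript ranged from 0 to 3.02 FPKM over the libraries and the second had 5.12 and 3.91 FPKM in mutants, against 2.89 and 2.78 FPKM in wild type. Which of these transcripts makes the ciliary form of DAF-19 is not given in the files.

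**Figure D5:**
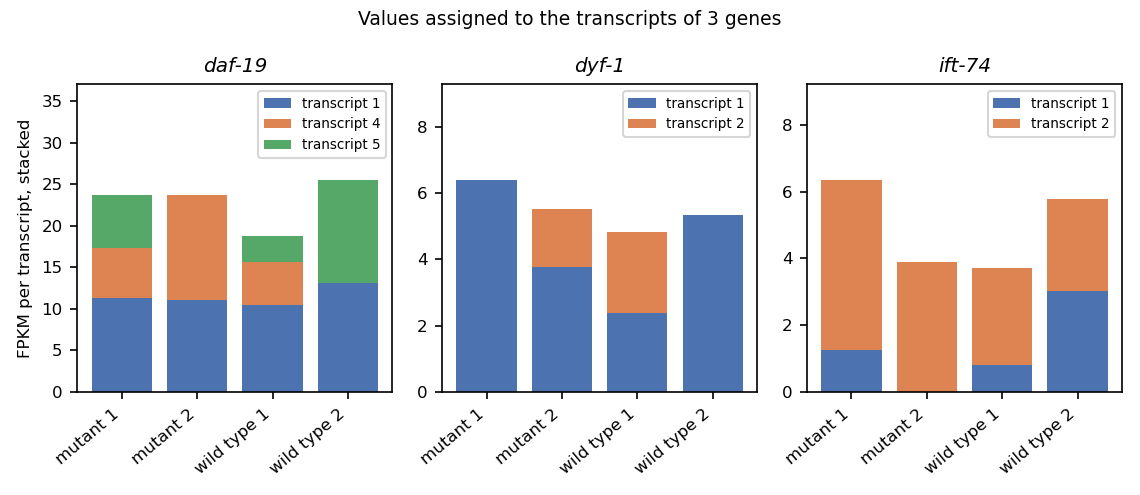
Stacked bars of the FPKM assigned to each transcript of daf-19, dyf-1 and ift-74 in the 2 mutant and 2 wild-type libraries, starting at 0; transcripts at 0 in all libraries are not drawn. Transcripts 4 and 5 of daf-19 are each listed at 0 in 1 library, while the first stays between 10.5 and 13.1 FPKM.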

How the data were processed

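Bulk RNA of whole L1 larvae was measured in 2 dve-1(uf171) mutant and 2 wild-type libraries, grouped by their titles. The submitters' processing notes name TopHat2, Cufflinks and build ce11, without versions. The authors deposited FPKM, 1 value per RefSeq accession and library (52491 accessions). Accessions were matched without version to a RefSeq table of WBcel235, the assembly of ce11. Of these 47645 matched, and FPKM were summed over 41614 genes. The other 4846, holding 20.9% to 21.7% of summed FPKM, were left out. Summed FPKM were 2.25e+06 and 2.05e+06 in mutant libraries and 2.39e+06 and 2.35e+06 in wild-type libraries.

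Fragment totals are not part of the table. Among transcripts under 0.3 FPKM, 365 of 1714 stood at 1 ratio between the wild-type libraries (1.0791, second over first, window 0.0002 to either side). At most 8 did for any other pair. A ratio between libraries is not a fragment total, so depth was not recovered for any library and no count test was run.

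Genes averaging 1 FPKM or more were tested with limma 3.58.1 (R 4.3.3, intensity trend) on log2(FPKM + 1), two-sided, with Benjamini-Hochberg adjustment over all tested genes. An exact permutation test of 2 against 2 cannot go below 0.333. The script was tested on simulated data. The list of 50 genes, its groups, the other lists, the tests, the alternatives and the rule for named genes were chosen with earlier results of these data known. That rule takes dve-1 and daf-19, any gene past the threshold, up to 3 genes each way per group without overlap between genotypes, the 2 most abundant of each group, and any member listed at 0. From each outside list it takes up to 2 each way. Other members are given as well for completeness. Exon overlaps come from the Ensembl annotation of WBcel235. Of the 43 tested genes, 5 share over 5% of exon bases with another gene (klp-11, ift-20, arl-13, dyf-5 and mks-3), and 23 share none. For dyf-3, klp-11, xbx-6 and arl-13 fewer transcripts had values than the RefSeq annotation lists, so their sums may be incomplete. Promoter motifs were not analysed here.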

Additional observations from a re-analysis of the deposited data

How the results depend on the processing

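No cilium gene and no further cilium gene passed in any of the alternatives run. No member transcript passed in those run on transcripts, which leave out the protein-coding and largest-transcript settings. The median over cilium genes kept its sign, between 0.096 and 0.268 with 1 library left out. It was 0.091 under median-ratio scaling, against 0.0058 over all tested genes. At an unadjusted p under 0.05, 0 members passed in the alternatives that kept all 4 libraries, where 7.67% to 12.5% of all tested genes did. The smallest adjusted p of a member over the alternatives was 0.148. Over all genes 252 were called (18.3% higher). The count was 105 at a mean of at least 5 FPKM, 391 without the intensity trend, 165 among protein-coding genes and 54 among genes above 0 in all libraries. It ranged from 369 to 767 with 1 library left out, with 90.0% and 91.0% of calls higher when mutant replicate 1 or 2 was left out. With the replicate number as a block 0 genes passed by limma (7.67% of genes at an unadjusted p under 0.05). The labels do not say whether equal replicate numbers mark libraries prepared together. The differences between replicates of the 2 genotypes correlated at -0.0562 over genes, which cannot settle it, since a shared batch need not move genes alike. The block changed no call of a member.

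Among the 43 cilium genes 37 lay above 0, where 60.7% of all tested genes did. Without the first mutant or the first wild-type library 27 and 29 did (56.1% and 57.7% of all tested genes). Without the second mutant or the second wild-type library 38 and 37 did (58.8% and 59.2% of all tested genes). Under median-ratio scaling 31 did (50.6% of all tested genes). Of the genes chosen by the naming rule, these turned direction, and the cause was not tested. Under median-ratio scaling bbs-5 stood at -0.069 and osm-10 at -0.026, and under quantile normalization bbs-5 at -0.026. With the largest transcript only, daf-19 stood at -0.067 and che-10 at 0.831. With 1 library left out, log2 fold changes ranged from -0.046 to 0.40 (ift-139), -0.144 to 0.197 (bbs-5), -0.023 to 0.347 (bbs-8), -0.152 to 0.129 (dyf-11), -0.216 to 0.003 (klp-20), -0.186 to 0.33 (osm-10) and -0.103 to 0.319 (daf-19). With 1 library in an arm, that library is assumed to vary like the others. For 33 of the 43 genes the interval lay within a 2-fold change on the log2(FPKM + 1) scale, and the others allow more. Depth is unknown for all 4 libraries.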

Other observations

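One transcript of egl-4, outside the list of 50, was chosen after its values were seen. The gene encodes the cGMP-dependent protein kinase that adapts olfactory neurons, and its summed FPKM were 132 and 143 in mutants, against 89.0 and 121 in wild type (limma adjusted p = 0.535). The second of its 7 transcripts in the table, in order of identifiers, was listed at 54.3 and 53.5 FPKM in mutants, against 0 in both wild-type libraries. This transcript reached a mean of 1 FPKM through the mutant libraries alone, so no test result is drawn from it. The first was listed at 0 in both mutant libraries, against 12.9 and 0 FPKM in wild type, and the fifth at 0 and 21.7 FPKM in mutants, against 24.5 and 36.5 FPKM in wild type. Values moved between transcripts of 1 gene within a genotype too, and an exact 0 in such a table can be a failed estimate.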
